A study of Mus musculus with 6 samples.

Results

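Intermediate filaments are rope-like polymers that give cells and nuclei mechanical strength. In the cytoplasm they are built from cell-type-specific subunits such as vimentin or keratins, and plectin ties them to actin, microtubules and adhesion sites. Inside the nucleus the lamins, which belong to the same protein family, form the meshwork under the inner nuclear membrane. Sertoli cells, the somatic nurse cells of the seminiferous tubule, are known for a vimentin network, while keratins 8 and 18 are associated with their immature or dedifferentiated state.

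The 10 genes described here are the intermediate filament genes Vim, Nes, Krt7, Krt8, Krt18 and Krt19, the lamin genes Lmna, Lmnb1 and Lmnb2, and the linker gene Plec. They were taken by symbol from the deposited expression table, and all 10 were found among its 55414 genes. The cells were TM4, an established mouse Sertoli cell line, and the 6 RNA sequencing libraries fell into a group labelled VC (3 libraries) and an untreated control group (3 libraries). The series title names vitamin C and the agent label of the VC samples names valine, so the group is called VC. The labels give no dose or exposure time. They also do not say that replicates came from separate cultures. The p-values therefore set each group difference against a spread within the groups of these 6 libraries that may be technical.

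Values are on a transcripts-per-million scale with 1 factor per library, and are therefore levels per transcript length. Read numbers could be recovered from the values and exon lengths, and they summed to between 20408425 and 22316853 per library. Control replicate 3 stood apart. Pairs that included it differed in their reads by a chi-square per degree of freedom of 9.57 to 17.21, and the remaining pairs by 2.78 to 7.28. Genes with long transcripts were lower and genes with short transcripts higher in that library than in the other 2 controls. The Sertoli label was met in part. Gata4, a gonadal transcription factor, was at 21.8 ± 0.442 in VC and 19.2 ± 0.631 in control (mean ± SD, n = 3 each), and Inhbb, an inhibin and activin subunit, at 176.7 ± 3.28 in VC and 155.8 ± 4.03 in control. The Sertoli markers Wt1, Fshr, Gata1 and Dmrt1 were listed at 0 in all 6 libraries. The epithelial markers Epcam, Krt5, Krt14 and Cldn4 were also at 0 throughout.

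Upstream sequences were found for 7 of the 10 genes in RefSeq (build GRCm38.p6); Krt19, Lmnb1 and Plec had none in that table. The 100 bases before the annotated start are shown for the filament genes with the most abundant cytoplasmic transcripts, Vim and Nes, and for the keratin pair whose transcripts were scarce, Krt8 and Krt18. Capitals mark matches on either strand to TATAAA, the core of the TATA box, to CCAAT, to the GC box core GGGCGG, or to TGANTCA, the core bound by AP-1.
Vim: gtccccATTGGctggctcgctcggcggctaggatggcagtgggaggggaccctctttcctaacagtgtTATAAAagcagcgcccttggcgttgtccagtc
Nes: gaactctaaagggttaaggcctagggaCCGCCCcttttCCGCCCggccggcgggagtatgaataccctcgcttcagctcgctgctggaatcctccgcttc
Krt8: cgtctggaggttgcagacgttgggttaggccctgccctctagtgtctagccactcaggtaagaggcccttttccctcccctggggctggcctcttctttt
Krt18: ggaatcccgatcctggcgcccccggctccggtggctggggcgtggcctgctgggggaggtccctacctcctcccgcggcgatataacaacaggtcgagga
The windows lie at chr2:13574211-13574310 on the plus strand (Vim), chr3:87970993-87971092 on the plus strand (Nes), chr15:102004343-102004442 on the minus strand (Krt8) and chr15:102028116-102028215 on the plus strand (Krt18). In the Vim window TATAAA begins 32 bases before the start, and a reverse-strand CCAAT lies 94 bases before it. The Nes window holds 2 reverse-strand GGGCGG matches. No match fell in the Krt8 and Krt18 windows; in Krt8 the letters TATAAA begin 1 base before the annotated start and so run past the window. Of 32851 windows of the same length in that table, 5.56% held TATAAA, 18.9% CCAAT, 24.7% GGGCGG and 2.73% TGANTCA. No match among the 4 windows overlapped another.

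Vimentin dominated the filament transcripts of these cells in both groups, and the simple-epithelial keratins were at or near the limit of detection. Vim was at 1165, 1228 and 1219 in the VC libraries and 1242, 1247 and 1330 in the control libraries, rank 103 of all 55414 genes by mean value. Over the 24 cytoplasmic filament genes examined, Vim made up 86.0% to 86.3% of the summed value in VC and 84.8% to 86.5% in control, and Vim with Nes 97.2% to 97.7% in all 6 libraries. After Vim came Lmna at a mean of 341.7, Plec at 178.9 and Nes at 168.7, then Lmnb1 at 91.7 and Lmnb2 at 26.8, all as means of 6 libraries. Plec and Nes were next to each other in this order and did not keep 1 order across libraries: Nes was above Plec in the 3 control libraries, and Plec above Nes in the 3 VC libraries. Of the other neighbours among these 6 genes, the higher one was above the lower one in every library.

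**Figure D1:**
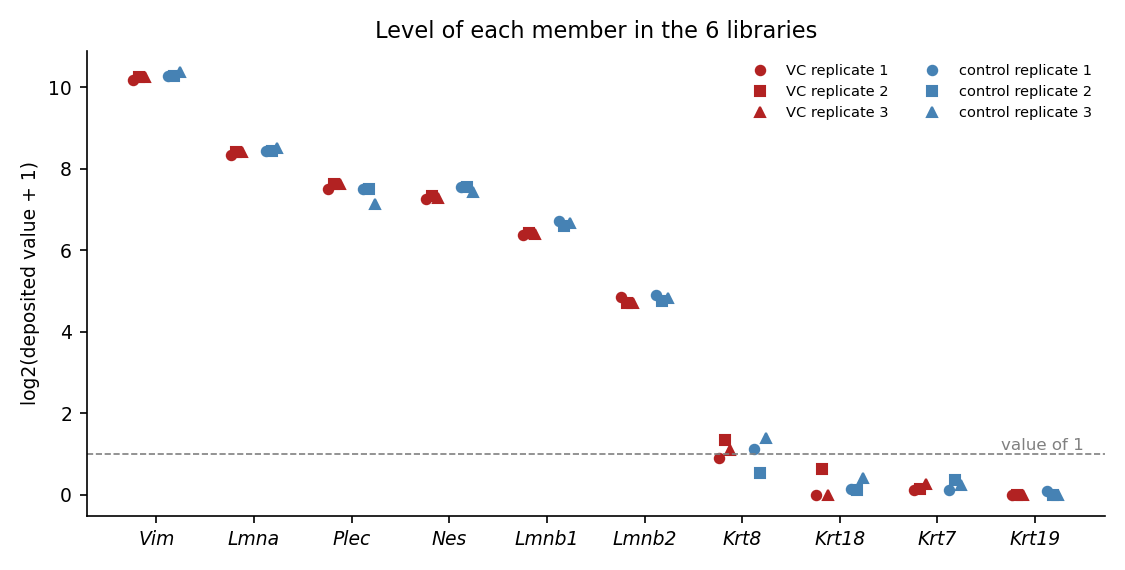
Level of the 10 genes in each library, as log2(deposited value + 1), with VC in red and control in blue and 1 symbol per replicate; genes run from the highest to the lowest mean. Vim lies above all others, the 3 lamins, Plec and Nes in the middle, and the 4 keratins around or below the dashed line that marks a value of 1.

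None of the 10 genes passed the threshold between VC and control. The 13972 genes that reached a value of 1 in at least 3 libraries were tested by limma on log2(value + 1), two-sided, with Benjamini-Hochberg adjustment over all of them. Of these, 0.687% had an adjusted p under 0.05, made up of 0.429% higher and 0.258% lower in VC. The test covered 7 of the 10 genes; Krt7, Krt18 and Krt19 lay below the filter. Of the 7, none was called higher or lower, and 2 (Lmnb1 and Nes) had an unadjusted p under 0.05, both lower in VC. That held for 17.2% of all tested genes, and in the direction of lower in VC for 8.2%. Limma-voom, applied to the reads, which called 4.39% of the genes it tested, called these same 2 lower in VC. In 4 of the 7 (Vim, Nes, Lmna and Lmnb1) all VC values lay below all control values, which held for 11.6% of tested genes. The values of a library summed to 966031 to 983802 in VC and 1007535 to 1058206 in control, so this count depends on the scaling. With libraries scaled to equal totals, the median fold change of all tested genes was 0.078. On that scaling the fold change was -0.01 for Vim and for Lmna, -0.15 for Nes and -0.19 for Lmnb1. In none of the 7 did all VC values lie above all control values. The median log2 fold change of the 7 was -0.08, beside 0.012 over all tested genes. After quantile normalization it was -0.01, beside 0.001 over all tested genes, with 3 positive and 4 negative.

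Lmnb1 encodes lamin B1, a permanently farnesylated lamin of the nuclear periphery whose loss is a known accompaniment of cellular senescence. It was at 81.6, 85.0 and 83.5 in the VC libraries and 104.5, 95.5 and 100.3 in the control libraries. The groups did not overlap, and each VC library was below each control library. The log2 fold change was -0.26 (SE 0.042, 95% interval -0.36 to -0.16), with a limma adjusted p of 0.0538, just short of the threshold. The adjusted p ran from 0.0141 to 0.226 over 17 alternative fits, 4 of which put it under 0.05. It was 0.0141 in limma-voom, 0.0389 with each library's trend with transcript length removed (1.92% of all tested genes called), 0.0428 with library weights (1.82% called) and 0.0827 without control replicate 3. The sign was the same in all 17. With libraries scaled to equal totals the fold change was -0.19 (limma adjusted p = 0.0957), and after quantile normalization -0.23 (limma adjusted p = 0.0757).

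The A-type lamin gene and the other B-type gene had smaller fold changes. Lmna, which encodes lamins A and C by alternative splicing, was at 320.2, 336.7 and 337.9 in VC and 347.3, 343.5 and 364.9 in control. Here too the groups did not overlap, but the gap between them was small beside their spread. The fold change was -0.09 log2 units (SE 0.039, 95% interval -0.18 to 0.01, limma adjusted p = 0.319). Lmnb2, which encodes lamin B2, was at 27.9, 25.2 and 25.2 in VC and 28.8, 26.1 and 27.6 in control, with overlapping groups and a fold change of -0.07 log2 units (95% interval -0.21 to 0.07, limma adjusted p = 0.572). With libraries scaled to equal totals, a setting that moves the median of all tested genes to 0.078, the fold changes were -0.01 for Lmna and -0.003 for Lmnb2. Table values are per gene, so lamin A and lamin C transcripts cannot be separated.

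Set against lamin A/C within each library, where the scaling cancels, Lmnb1 stood at 25.5%, 25.2% and 24.7% of the Lmna value in VC and at 30.1%, 27.8% and 27.5% in control. Each VC library was below each control library. On the log2(value + 1) scale the ratio averaged -1.98 ± 0.0226 in VC and -1.80 ± 0.0702 in control (SD, n = 3 each), a difference of -0.17, for which no test was made. As a share of the 3 lamins, Lmna made up 74.5% to 75.6% in VC and 72.3% to 74.0% in control. Lmnb1 made up 18.7% to 19.0% in VC and 20.4% to 21.7% in control. Lmnb2 overlapped, with 5.64% to 6.49% in VC and 5.60% to 5.99% in control.

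Nes encodes nestin, a large filament subunit of progenitor and dividing cells that assembles with vimentin. It was at 151.8, 161.0 and 154.3 in the VC libraries and 187.3, 185.9 and 171.7 in the control libraries. All VC values lay below all control values, and control replicate 3 was the lowest of its group. The log2 fold change was -0.22 (SE 0.045, 95% interval -0.33 to -0.11), and the limma adjusted p of 0.0875 missed the threshold. It ran from 0.0224 to 0.276 over 17 alternative fits, with 4 under 0.05 and the same sign in all 17. Those 4 were limma-voom at 0.0224, the fit with the length trend removed at 0.0260, library weights at 0.0342 and the fit without control replicate 3 at 0.0492, where the fold change was -0.26. Without that library, 0.587% of all tested genes were called. The fold change of Nes was smaller under 2 other scalings. It was -0.15 with libraries scaled to equal totals (limma adjusted p = 0.212) and -0.17 after quantile normalization (limma adjusted p = 0.237).

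Vim, the subunit with which nestin assembles, had a smaller fold change. Its 3 VC values lay below its 3 control values, as listed above, with means of 1204 ± 34.0 in VC and 1273 ± 49.6 in control (SD, n = 3 each). The fold change was -0.08 log2 units (SE 0.043, 95% interval -0.18 to 0.02, limma adjusted p = 0.387), so a fall of more than 0.18 lies outside the interval. It was -0.01 with libraries scaled to equal totals and 0.02 after quantile normalization, where its sign turned.

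**Figure D2:**
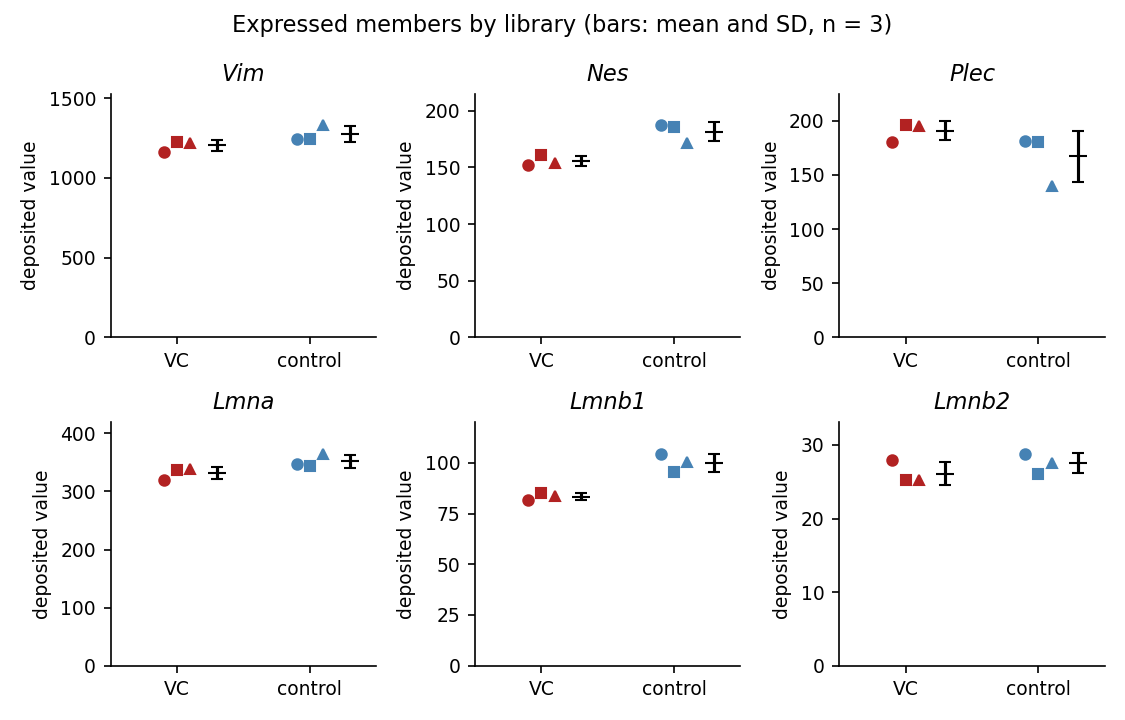
Deposited value of the 6 expressed genes in each library, VC in red and control in blue with 1 symbol per replicate, and the mean with its SD (n = 3) in black; each axis starts at 0. Vim, Nes, Lmna and Lmnb1 show separate groups, as 11.6% of tested genes did in that direction, with Lmnb1 at 81.6 to 85.0 in VC and 95.5 to 104.5 in control. Plec in control holds 1 low library at 140.0.

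Plec, which encodes the giant cytolinker plectin, was the one abundant gene of the 10 with a positive fold change. It was at 180.5, 195.9 and 195.6 in VC and 181.2, 180.0 and 140.0 in control. The groups overlapped, since VC replicate 1 was level with control replicates 1 and 2, and control replicate 3 lay far below the rest. The fold change was 0.20 log2 units (SE 0.10, 95% interval -0.04 to 0.44, limma adjusted p = 0.366). Without control replicate 3 it was 0.08 (adjusted p = 0.413), and with the length trend removed from all libraries it was 0.09 (adjusted p = 0.356). At 18113 bases of exon, Plec is the longest of the 10 genes. In control replicate 3 it lay 0.365 log2 units below the mean of the other controls. The 294 tested genes of 15000 bases or more had a median of -0.234 in the same difference, while the 3446 tested genes with the shortest exons had a median of 0.093. Of the Plec exon bases, 1.13% are shared with Parp10 on the same strand.

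The value of Plec was also set against that of Vim, a filament it binds, within each library. Plec stood at 15.5%, 16.0% and 16.0% of Vim in VC and 14.6%, 14.4% and 10.5% in control. The groups did not overlap in this ratio, and the control value far from the others was again replicate 3. The log2 ratio differed by 0.28 between VC and control with all libraries and by 0.12 without control replicate 3, and it was not tested.

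**Figure D3:**
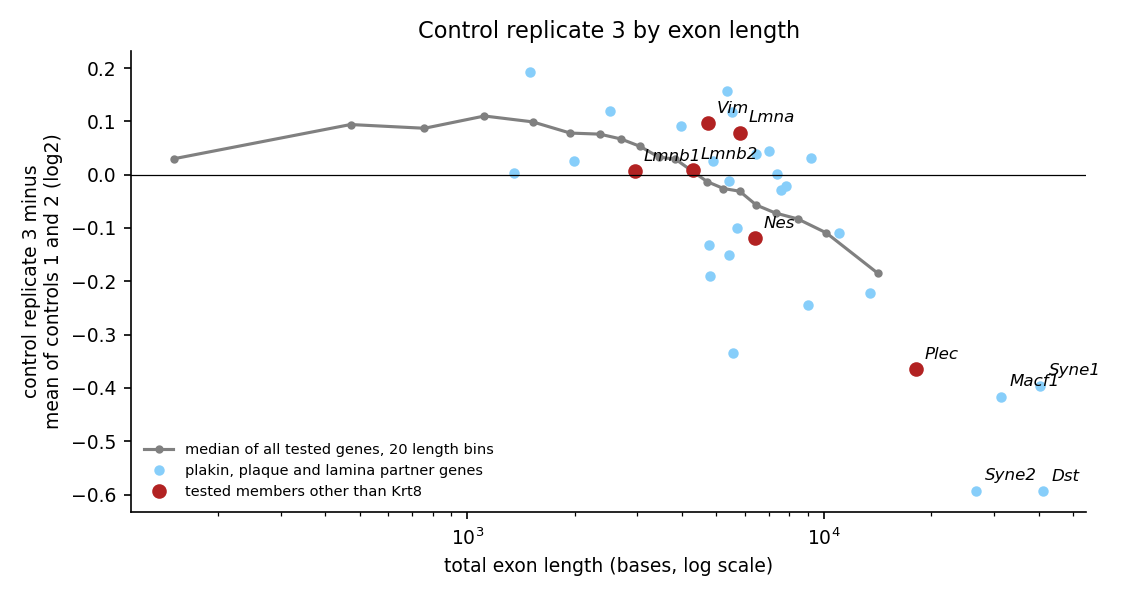
Difference between control replicate 3 and the mean of control replicates 1 and 2 on the log2(value + 1) scale, against total exon length on a log axis. The grey line gives the median of all tested genes in 20 length bins. Blue points give the listed plakin, plaque and lamina partner genes, Bag1 included, and red points the tested genes of the family other than Krt8. The line falls toward the longest genes, and Plec at -0.365 lies with the long genes Dst, Macf1, Syne1 and Syne2.

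Keratins 8 and 18 pair in the filaments of simple epithelia, and keratins 7 and 19 mark ductal and other simple epithelial cells. Krt8 was at 0.871, 1.52 and 1.14 in VC and 1.19, 0.450 and 1.60 in control, which rested on 14, 23 and 18 reads in VC and 18, 7 and 26 in control. The groups overlapped throughout. Its fold change was 0.10 log2 units with a wide 95% interval of -0.52 to 0.71 (limma adjusted p = 0.880), and its sign turned to -0.141 without control replicate 2 and -0.013 without VC replicate 2. Krt18 was at 0, 0.542 and 0 in VC and 0.090, 0.088 and 0.335 in control, or 0, 6 and 0 reads in VC and 1, 1 and 4 in control. A count of 0 allows up to 3 reads, which is a Krt18 value of 0.251 to 0.271 in these libraries and covers counting error only. No difference in Krt18 was detectable at this depth.

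Krt7 stood at 5, 5 and 11 reads in VC and 4, 16 and 10 reads in control, with values of 0.086, 0.092 and 0.194 in VC and 0.073, 0.286 and 0.171 in control. Krt19 had no read in VC and 1 read, in replicate 1, in control. Together the 4 keratins had 82 reads in VC and 88 in control, summed over 3 libraries each, where Vim had 136747 in VC and 144995 in control. Krt18 stood at 0%, 35.6% and 0% of the Krt8 value in VC and at 7.58%, 19.6% and 21.0% in control. On the log2(value + 1) scale the within-library ratio averaged -0.90 ± 0.194 in VC and -0.79 ± 0.329 in control (SD, n = 3 each). The groups overlapped, and only these few reads lay behind it. At values this low the added 1 largely sets that number, so it is not the ratio of the 2 transcripts. The labels do not say whether the libraries kept strand, and 5.16% of the Krt8 exons and 1.09% of the Krt7 exons are shared with opposite-strand genes (Gm36026 and Gm671). A pseudogene, Krt8-ps, is annotated as well, so reads could be split between it and Krt8.

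Other keratins were present at higher levels than Krt8. Of 50 keratin genes listed, 27 were at 0 in all libraries and 4 passed the filter: Krt80, Krt88, Krt10 and Krt8. The summed keratin value was 40.7 to 43.6 in VC and 38.9 to 40.2 in control. Most of it was Krt80, a type II keratin, at 31.4, 31.1 and 30.7 in VC and 27.1, 29.0 and 27.5 in control. Its groups did not overlap, with VC above control, as in 13.9% of tested genes, and the limma adjusted p was 0.153 at a fold change of 0.15 log2 units. Krt10 was at 4.30 ± 0.364 in VC and 4.43 ± 0.662 in control (SD, n = 3 each, limma adjusted p = 0.927). Among the 18 other filament genes listed, from Des and Gfap to the neurofilaments, 8 were at 0 in all libraries and 2, Krt80 and Krt10, were tested.

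**Figure D4:**
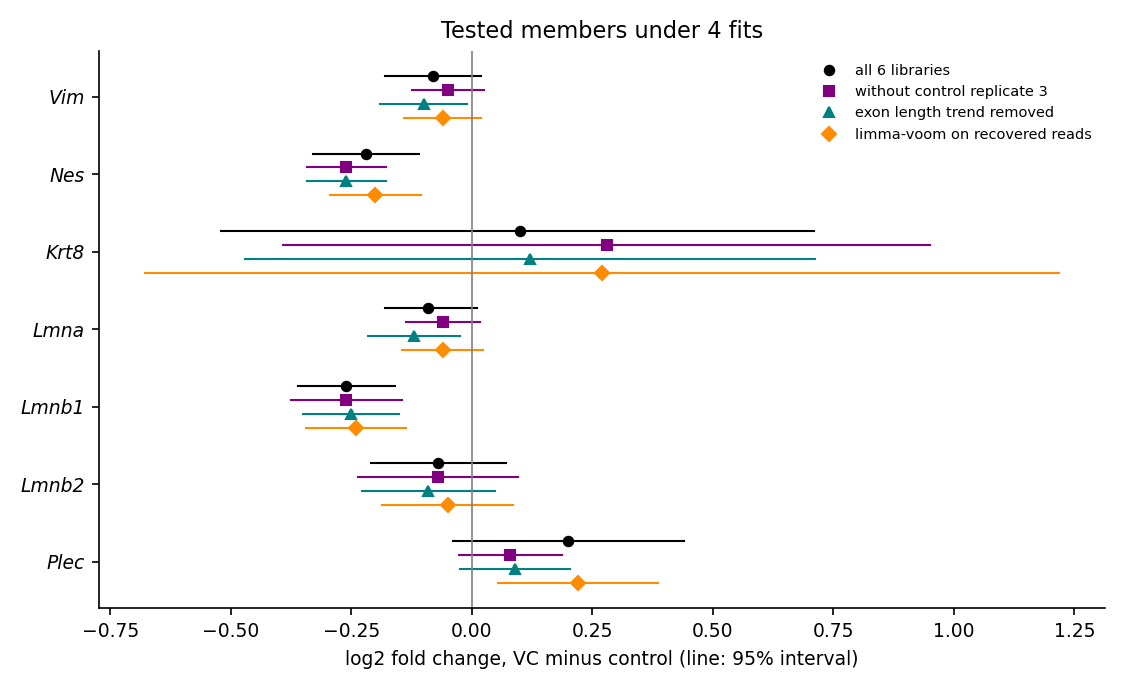
Log2 fold change of VC minus control for the 7 tested genes with its 95% interval, in the fit of all 6 libraries, without control replicate 3, with the exon length trend removed and by limma-voom on recovered reads. Lmnb1 and Nes lie to the left of 0 with their intervals in all 4 fits, at -0.26 and -0.22 with all libraries, and the Plec estimate shrinks to 0.08 without control replicate 3.

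Genes of the proteins that hold filaments in place were read beside the family. None of the 10 tested genes on the list of plakins, desmosome plaque and hemidesmosome partners passed the threshold over all genes. Of the 10, 7 had a positive and 3 a negative fold change, with a median of 0.17 log2 units beside 0.012 for all tested genes. Without control replicate 3 the median was 0.09, with 6 positive and 4 negative, and with the length trend removed it was 0.07. The most abundant gene on this list was Bag1, a co-chaperone of Hsp70 that is not itself a plakin or a plaque protein, at 172.0 ± 7.65 in VC and 203.9 ± 16.0 in control (SD, n = 3 each, limma adjusted p = 0.133). Bag1 is counted among the 10 genes and, at -0.24 log2 units, among the 3 negative ones, and the medians given include it. Pkp4, an armadillo protein of junctions, was at 65.6 ± 1.64 in VC and 67.9 ± 3.69 in control (limma adjusted p = 0.644). Pkp2, a desmosomal plakophilin picked after its values were seen, was at 9.46, 10.4 and 9.32 in VC and 11.7, 12.0 and 13.3 in control (fold change -0.31 log2 units, limma adjusted p = 0.111). Jup, a desmosome plaque gene also picked after its values were seen, went the other way. Its values were 8.92, 7.94 and 9.07 in VC and 7.14, 6.88 and 7.22 in control (fold change 0.25 log2 units, limma adjusted p = 0.154). Desmoplakin itself, Dsp, the plakin that anchors keratins at desmosomes and likewise picked after its values were seen, was at 0 in control and at most 0.027 in VC.

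The long plakin genes Dst and Macf1 were low in the same control library as Plec. Dst, the gene of dystonin, was at 38.7, 41.0 and 41.5 in VC and 37.8, 36.8 and 24.4 in control, and Macf1, which crosslinks actin and microtubules, at 38.6, 40.8 and 41.2 in VC and 38.2, 38.7 and 28.6 in control. Both were picked after their values were seen. As with Plec, 1 control library, replicate 3, lay far below the other 5. The fold change was 0.31 log2 units for Dst and 0.20 for Macf1 with all libraries, and 0.11 and 0.06 without control replicate 3. The part of transcript length in these values was not tested beyond the fits given.

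The lamina partners and the LINC complex, which couples the lamina to the cytoskeleton, had 0 of 17 tested genes past the threshold, 12 with a positive and 5 with a negative fold change and a median of 0.03 log2 units. Banf1, a chromatin-binding partner of lamins, was at 256.0 ± 8.84 in VC and 278.6 ± 22.2 in control (SD, n = 3 each, limma adjusted p = 0.364). Tmpo, the gene of the lamina-associated polypeptide LAP2, was at 66.5 ± 3.07 in VC and 73.5 ± 3.25 in control (limma adjusted p = 0.223). The giant nesprin genes Syne1 and Syne2, picked after their values were seen, had fold changes of 0.30 and 0.26 log2 units with all libraries, and 0.17 and 0.07 without control replicate 3. Genes of lamin prenylation and processing also had 0 of 8 past the threshold, with 7 positive, 1 negative and a median of 0.05. Fnta, the shared alpha subunit of enzymes that prenylate proteins, was at 103.5 ± 1.40 in VC and 109.3 ± 3.91 in control (limma adjusted p = 0.341), and Zmpste24, the protease that matures prelamin A, at 59.6 ± 1.66 in VC and 56.9 ± 1.93 in control (limma adjusted p = 0.452).

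**Figure D5:**
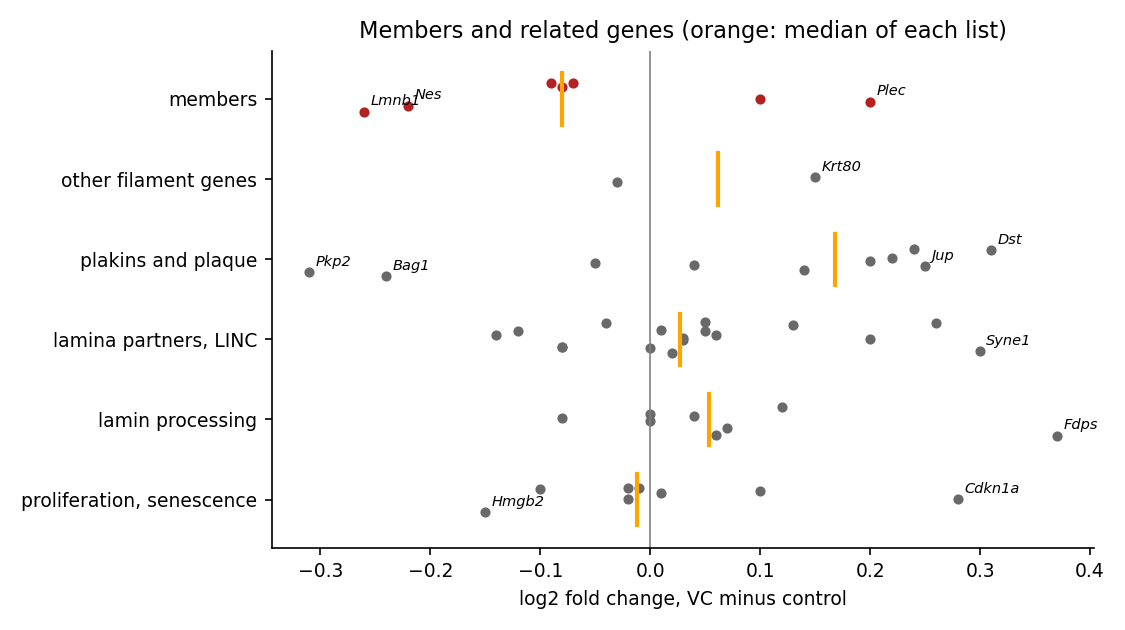
Log2 fold change of VC minus control for each tested gene of the family and of 5 lists of related genes, with the median of each list in orange. Lmnb1 and Nes have the most negative values of the family at -0.26 and -0.22. The median of the plakin and plaque list, which also holds Bag1, lies above those of the other lists at 0.17. It was 0.09 without control replicate 3.

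Genes of proliferation and senescence were read beside Lmnb1, and none of 8 passed the threshold, with 3 positive, 5 negative and a median of -0.01 log2 units, which was 0.06 with equal totals and 0.04 after quantile normalization (6 positive and 2 negative in each). Cdkn2a, the locus of p16 and p19Arf, was abundant in both groups, at 589.6 ± 3.71 in VC and 597.1 ± 28.5 in control (SD, n = 3 each, limma adjusted p = 0.866). Hmgb2, a chromatin protein of dividing cells, was at 258.1, 265.5 and 265.8 in VC and 291.6, 283.8 and 298.1 in control, with separate groups and a limma adjusted p of 0.105. Its fold change was -0.15 log2 units, and it was smaller under 2 other scalings. It was -0.07 with libraries scaled to equal totals (limma adjusted p = 0.241) and -0.09 after quantile normalization (limma adjusted p = 0.227). Cdkn1a, the gene of the cell cycle inhibitor p21, picked after its values were seen, was at 33.9, 36.5 and 34.8 in VC and 27.9, 29.2 and 28.9 in control. Its groups were separate as well, with VC above control, a fold change of 0.28 log2 units (SE 0.044) and a limma adjusted p of 0.0538. Mki67, the proliferation antigen Ki-67 and also picked after its values were seen, was at 134.3, 138.1 and 137.8 in VC and 150.4, 150.2 and 114.6 in control. The groups overlapped because control replicate 3 lay below all the others, while control replicates 1 and 2 lay above VC. The fold change of Mki67 was -0.01 log2 units with all libraries (limma adjusted p = 0.985) and -0.14 without control replicate 3 (limma adjusted p = 0.0903). Top2a and Ccnb1, on the same list, had fold changes of 0.01 and -0.02 with all libraries (limma adjusted p = 0.92 and 0.838). Without control replicate 3 these were -0.04 and -0.02 (limma adjusted p = 0.535 and 0.788). The other listed genes, Trp53 and Cdkn2b, were at -0.10 and 0.10 with all libraries (limma adjusted p = 0.192 and 0.586).

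Markers of contractile cells moved with the group. All 4 tested peritubular myoid and smooth muscle markers had a negative fold change, with a median of -0.55 log2 units. Of these, 2 passed the threshold, as did 0.258% of all tested genes in that direction. They were Acta2, smooth muscle actin, at -0.68 log2 units (limma adjusted p = 0.0111) and Actg2, enteric actin, at -0.53 (limma adjusted p = 0.0348). Cnn1 was at -0.57 (limma adjusted p = 0.0672) and Tagln at -0.39 (limma adjusted p = 0.36). The summed value of the 6 listed markers was 473 to 494 in VC and 726 to 803 in control; Myh11 was at or near 0 in all libraries and Des, the muscle filament gene, below 1. The part of these genes in the values of Lmnb1 and Nes was not tested. In these bulk libraries fewer cells of a type and less RNA per cell cannot be told apart. Of the other marker lists none had a gene past the threshold. Germ cell markers summed to 0.245 to 0.557 in VC and 0 to 0.204 in control, and none reached the filter. Prm1, Dazl and Sycp3 had 5, 1 and 1 reads in VC and 0, 0 and 2 in control, summed over 3 libraries each. The other germ markers were at 0, and reads this few show no difference. Endothelial markers summed to 1.83 to 2.26 in VC and 1.34 to 1.88 in control, and Leydig markers to 2.73 to 3.53 in VC and 2.34 to 3.31 in control. Macrophage markers summed to 60.5 to 70.6 in VC and 55.5 to 65.3 in control, nearly all of it Cd14, with Adgre1 at 0. Sertoli markers summed to 213 to 222 in VC and 189 to 195 in control, most of it Inhbb. Of 8 tested Sertoli markers, 7 had a positive and 1 a negative fold change, with a median of 0.18 log2 units beside 0.012 for all tested genes. In 3 of them all VC values lay above all control values, as in 13.9% of tested genes. Inhbb had a fold change of 0.18 (limma adjusted p = 0.0747). Its adjusted p was 0.0125 by limma-voom and 0.0261 by limma with libraries scaled to equal totals.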

How the data were processed

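RNA of TM4 cells was sequenced from TruSeq libraries, per the labels' protocols, and aligned with HISAT2 to GRCm39, per the submitters' processing notes. No source used here names the read counter or the annotation. The unit of the deposited table is a signal that is never negative: TPM (transcripts scaled for length and library total) times 1 factor per library, which the authors' table name ties to TMM scaling. Columns were matched to samples by group letter and number. GENCODE M21 (GRCm38) gave symbols for 52081 genes and exon lengths for 52133; RefSeq gave upstream sequences. Reads were recovered as value times exon length divided by the worth of 1 read; 98.74% to 98.89% came within 0.1 of a whole number (tested up to 1000 reads). They served for depth, chi-square, limma-voom, the simulated data and the read numbers given for Vim, the keratins and the germ cell markers. The main fit did not use them. The main fit was limma 3.58.1 (R 4.3.3) on log2(value + 1), with an intensity trend, no covariate and the filter given above; fold changes are on that scale, where changes of low genes come out too small. The fit was also run on simulated data, which held no length trend of control replicate 3. There it recovered 28.2% of 1.2-fold and 73% of 1.5-fold changes, and 6.07% of its calls were false. A change near 1.2-fold that misses the threshold is therefore not shown to be absent. By rule, the text named all 10 family members and, from each list, the 2 most abundant and up to 4 past the threshold; others were picked after their values were seen, as were cell type markers at or near 0. Family and lists were chosen with earlier results of these data known. The removal of length trends was added after seeing the data. Python 3.11.15 and matplotlib 3.10.9 made tables and figures.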

Additional observations from a re-analysis of the deposited data

How the results depend on the processing

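The number of family members past the threshold was 0 higher in all 17 alternatives. For members lower in VC, 0 in the main fit became 1 (Lmnb1) with a filter of 5 in 3 libraries, and 2 (Lmnb1 and Nes) with library weights, limma-voom and the length trend removed, and ran from 0 to 1 when 1 library was left out. Over all genes 96 calls became 30 without a filter, 183 with the stricter filter, 217 with equal totals (182 higher and 35 lower, against 60 and 36), 6 without an intensity trend, 254 with library weights, 604 by limma-voom and 264 with the length trend removed. They ran from 0 to 82 with 1 library left out: 1 without control replicate 1 or VC replicate 3, 0 without control replicate 2, VC replicate 1 or VC replicate 2, and 82 without control replicate 3. The cause was not tested. Of the 5 related lists, 0 calls became 1 (Cdkn1a) with the stricter filter, equal totals, library weights and the length trend removed, and 5 (Cdkn1a, Fdps, Jup, Pkp2 and Syne1) by limma-voom. With the replicate number as a block, 0 genes were called; same-numbered libraries did not deviate together (correlations of -0.019, -0.011 and 0.005), and none correlated best with its own number. The sign turned for Vim after quantile normalization (0.021) and for Krt8 without control replicate 2 (-0.141) and VC replicate 2 (-0.013), its range with 1 library left out being -0.141 to 0.28. With 1 library left out, differences in ratios were taken on the log2(value + 1) scale. That of Plec to Vim ran from 0.12 (without control replicate 3) to 0.36, and that of Lmnb1 to Lmna from -0.20 to -0.13. That of Krt18 to Krt8 ran from -0.22 to 0.08, where its sign turned without control replicate 2. Read depth limits what can be said of the 4 keratins.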
